A study of Mus musculus with 12 samples.

Results

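Pax6 and Gata4 are genes of developmental transcription factors, and the chromatin around both was followed through the peaks that 8 chromatin immunoprecipitation sequencing (ChIP-seq) libraries placed in a 55-kb window at Pax6 (mm9, chr2:105495001-105550000) and a 75-kb window at Gata4 (mm9, chr14:63805001-63880000). Of 128880 peaks in the 8 lists, 62 overlapped these windows, 18 at Pax6 and 44 at Gata4. H3K27me3, trimethylated lysine 27 of histone H3, gave 44 of them, and H3K4me3, trimethylated lysine 4, gave 18. The windows are defined by position alone. They rest on the positions assigned to the genes for this work, since no mm9 annotation was used here, so that no peak is placed at an exon, an intron or a start site.

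Mouse embryonic fibroblasts (MEFs), kept as primary cultures and of hybrid 129/B6 background, were the source of all libraries. The 4 conditions were lincRNA-p21-/- (KO) cells with doxorubicin, KO cells with mock treatment, lincRNA-p21+/+ (WT) cells with doxorubicin and WT cells with mock treatment. Doxorubicin, which damages DNA, was given at a labelled 0.5 mM for 24 h, a dose printed as the labels have it. LincRNA-p21 is a long noncoding RNA under control of p53, and its role in the expression of Polycomb targets is the question in the series title. Each mark had 1 library in each condition. No spread between cultures could be measured, and no p-value is given for any difference. The labels do not say how many embryos or cultures were used, nor which bases the KO allele lacks. The labelled cell type and the KO allele were not checked against marker loci, for want of an mm9 annotation.

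H3K27me3 is laid down by Polycomb repressive complex 2 and covers genes of developmental regulators in cells where they are kept silent. H3K4me3 is laid down at promoters by the SET1 and MLL complexes, and the 2 marks together form the state known as bivalent, well known at developmental genes of embryonic stem cells. Pax6 is a paired-box and homeobox factor needed for the eye, the brain and the endocrine pancreas. Gata4 is a zinc-finger factor of the heart, the gonads and the endoderm. Transcription was not measured in these libraries, so that silence of the genes in these cells was not checked. In the RefSeq gene table of build GRCm38.p6, used for names alone, the neighbours of Pax6 were Elp4 and Immp1l, which code for proteins, and the noncoding Paupar and Pax6os1. Those of Gata4 were Neil2 and Blk, with noncoding genes between.

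Sites of both marks tend to be rich in the dinucleotide CG, and so the Pax6 start-site sequences are shown. Of the 2 genes 1 was matched in the RefSeq promoter set, with 2 start sites of Pax6, each given from 250 bases before to 50 bases after the start. CG is in capitals. The coordinates belong to build GRCm38.p6 and cannot be set against the mm9 peaks, so that which peak, if any, holds them was not determined. The first lies at GRCm38.p6 chr2:105668646-105668945 and the second at GRCm38.p6 chr2:105682213-105682512, both on the plus strand.
Pax6 start 1: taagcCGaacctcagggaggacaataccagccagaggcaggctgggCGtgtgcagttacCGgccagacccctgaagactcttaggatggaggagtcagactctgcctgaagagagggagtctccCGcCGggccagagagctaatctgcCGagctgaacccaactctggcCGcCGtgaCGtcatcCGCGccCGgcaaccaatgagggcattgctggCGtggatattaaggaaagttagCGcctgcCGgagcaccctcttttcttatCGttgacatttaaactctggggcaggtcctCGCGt
Pax6 start 2: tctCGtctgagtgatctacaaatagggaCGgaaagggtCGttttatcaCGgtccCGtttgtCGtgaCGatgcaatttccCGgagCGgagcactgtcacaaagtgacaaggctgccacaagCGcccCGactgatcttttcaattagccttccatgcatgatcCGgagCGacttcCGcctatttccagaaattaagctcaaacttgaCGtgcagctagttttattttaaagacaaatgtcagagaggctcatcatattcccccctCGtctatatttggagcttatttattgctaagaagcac
The first holds 18 CG and the second 16, against a median of 7 over the 32851 promoters of the set. CG reads the same on both strands. At least 1 CG occurred in 94.6% of all promoters, 18 or more in 29.7% and 16 or more in 33.0%.

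A broad H3K27me3 domain lay over Pax6 in all 4 conditions and changed little in extent. Peaks covered 38.2 kb of the window in KO doxorubicin, 37.9 kb in KO mock, 36.4 kb in WT doxorubicin and 37.6 kb in WT mock cells. These are 69.5%, 68.8%, 66.1% and 68.3% of the window in the same order. The bases listed in all 4 libraries came to 36.0 kb, or 92.3% of the 39.0 kb listed in any of them. Most of the cover came from a single wide peak per library, of 37.3 kb in KO doxorubicin, 37.6 kb in KO mock, 34.4 kb in WT doxorubicin and 34.7 kb in WT mock cells. These peaks were among the widest of their lists, at ranks 5, 2, 5 and 11 by width in that order.

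**Figure D1:**
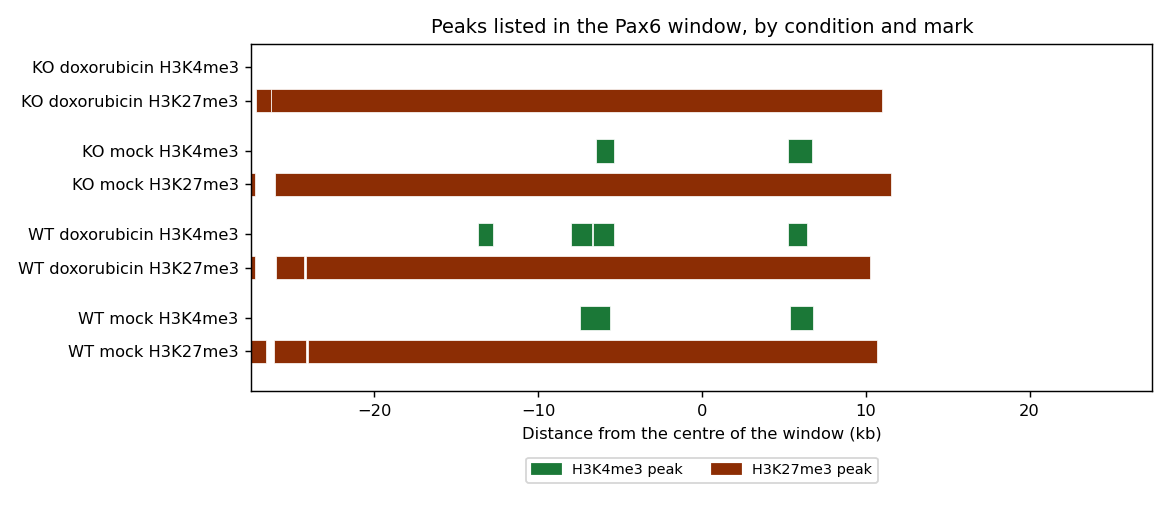
Peaks of H3K4me3 (green) and H3K27me3 (brown) in the Pax6 window, with distance from the centre of the window in kb on the x axis and 1 library per row. Peaks are clipped to the window, and the joined H3K27me3 domain starts left of it in the 4 libraries, so that its left edge is not shown. The right edge is nearly the same in the 4 libraries, and the KO doxorubicin row has no H3K4me3 peak.

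When peaks less than 3 kb apart were joined, the Pax6 domain ran from 105490860 to 105533487 in KO doxorubicin cells and from 105493361 to 105534063 in KO mock cells. In WT doxorubicin cells it ran from 105492556 to 105532766, and in WT mock cells from 105491779 to 105533161. The left edge thus varied over 2501 bp and the right edge over 1297 bp, in domains 40.2 to 42.6 kb long. To the right the next listed H3K27me3 peak was 1000.1 to 1001.9 kb away in each of the 4 lists. Peak numbers, which follow position along each chromosome in the lists, skipped 2 in KO doxorubicin, 2 in KO mock, 3 in WT doxorubicin and 1 in WT mock cells in that gap. If these were peaks left out for a score under 80, weak peaks were called there and not listed. To the left the next peak was 278.7 kb away in KO doxorubicin, 281.3 kb in KO mock, 39.4 kb in WT doxorubicin and 245.7 kb in WT mock cells. That WT doxorubicin peak scored 86.4, near the lowest score listed. In the left gap the numbers skipped were 7, 4, 2 and 1 in the same order, which may likewise be peaks called and not listed.

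The score, which the authors' lists give as -10 times the log10 of the peak caller's p-value, set the WT doxorubicin library apart at Pax6. The wide peak scored 1330 in KO doxorubicin, 1785 in KO mock, 463 in WT doxorubicin and 1550 in WT mock cells. Since scores depend on each library's depth, the rank within the list is the fairer measure. By score it was peak 690 of 17828, 455 of 16580, 2601 of 17517 and 425 of 16160 in the same order. The WT doxorubicin peak was lower in its list than the other 3, although its width was not.

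At Gata4 the H3K27me3 peaks formed a broken stretch on the left and a solid domain on the right. WT doxorubicin cells alone had narrow peaks left of both. Peaks covered 41.9 kb of the window in KO doxorubicin, 40.0 kb in KO mock, 46.0 kb in WT doxorubicin and 45.8 kb in WT mock cells. These are 55.9%, 53.4%, 61.3% and 61.1% of the window, so that both KO libraries lay below both WT libraries. The number of peaks, 8, 9, 12 and 5 in the same order, did not follow the covered length. The bases listed in all 4 libraries came to 34.8 kb, or 63.3% of the 55.0 kb listed in any.

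**Figure D2:**
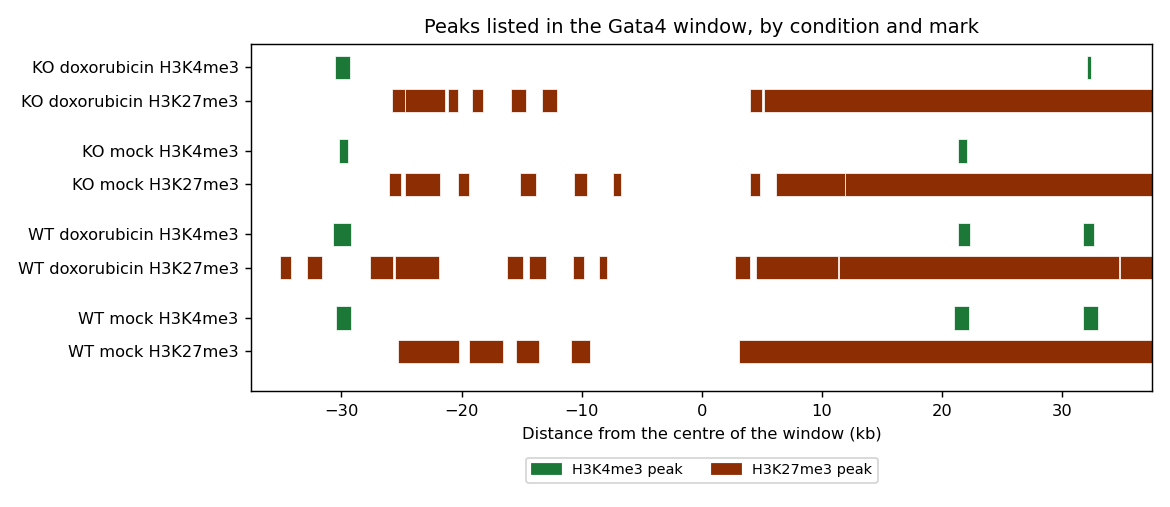
Peaks of H3K4me3 (green) and H3K27me3 (brown) in the Gata4 window, with distance from the centre of the window in kb on the x axis and 1 library per row. Narrow H3K27me3 peaks on the left differ between rows, the domain on the right runs out of the window in each, and the leftmost H3K4me3 place is outside H3K27me3.

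The solid Gata4 domain ran on past the window and ended within 323 bp of the same place in the 4 libraries, at 63891859 in KO doxorubicin, 63891830 in KO mock, 63891579 in WT doxorubicin and 63891902 in WT mock cells. It began between 63845244 and 63846528, a range of 1284 bp, and was 45.3 kb, 45.3 kb, 46.3 kb and 46.3 kb long in the same order. In WT mock cells it was a single peak of 46.3 kb with a score of 798, and in KO doxorubicin cells mainly a single peak of 44.2 kb with a score of 1001. In KO mock cells the widest of its 3 peaks was 37.4 kb, with a score of 1402. In WT doxorubicin cells it was split into 4 peaks, of which the 2 widest were 23.3 kb (score 1835) and 14.3 kb (score 2713). The score of 2713 was the 47th highest of 17517 peaks in that list. Edges of single peaks therefore say less about this domain than the joined extent.

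The broken left stretch of Gata4, 20.9 kb from 63814914 to 63835799, was covered over 8.65 kb in KO doxorubicin, 7.86 kb in KO mock, 9.78 kb in WT doxorubicin and 11.4 kb in WT mock cells. Just 3.30 kb of it, 18.3% of the bases listed in any library, was listed in all 4. Its strongest peak, which began between 63816981 and 63817794, scored 301 in KO doxorubicin, 458 in KO mock, 447 in WT doxorubicin and 468 in WT mock cells, and the other peaks there scored 80.9 to 170. Within this stretch and the gap to its right, 3 numbers were missing in KO doxorubicin, 3 in KO mock, 3 in WT doxorubicin and 2 in WT mock cells, which may likewise be peaks called and not listed. A strip of 9.44 kb between the stretch and the domain, from 63835800 to 63845243, held no listed H3K27me3 peak in any of the 4 libraries.

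The solid domains were set beside the 1898 H3K27me3 regions of 10 kb or more that joining peaks of the 4 libraries gave. The Pax6 region (43.2 kb) was the 112th longest and the solid Gata4 region (46.7 kb) the 95th. In the share of their bases listed in all 4 libraries they stood higher, at 86.2% for Pax6, the 24th highest, and 92.3% for Gata4, the 6th highest. The median region had 33.7%, with quartiles of 14.4% and 53.6%. The broken Gata4 stretch was 1334th, at 18.3%. These ranks are over regions of all lengths from 10 kb, and regions of like length or peak width were not compared apart.

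H3K27me3 covered length was then compared between conditions, with a change of 1.5-fold either way as the size to note. Neither window reached it in any of the 4 comparisons. At Pax6 doxorubicin over mock was 1.01 in KO and 0.968 in WT cells, and KO over WT was 1.05 with doxorubicin and 1.01 in mock cells. At Gata4 doxorubicin over mock was 1.05 in KO and 1.00 in WT cells, and KO over WT was 0.912 with doxorubicin and 0.874 in mock cells. The median region had ratios of 0.977, 0.848, 0.918 and 0.800 in this order. The medians are over whole regions and the ratios of the 2 loci over windows, so that they are unlike measures. The Gata4 window holds part of the solid region, the broken stretch and, in WT doxorubicin cells alone, narrow peaks further left. These peaks ran from 63807393 to 63808270 (878 bp, score 97.8) and from 63809594 to 63810901 (1308 bp, score 91.0). They enter the ratio of 0.912, and the lengths that follow leave them out. The whole solid region was covered over 45.1 kb in KO and 45.6 kb in WT cells with doxorubicin. In mock cells these were 44.0 and 46.3 kb. The broken stretch had 8.65 kb in KO and 9.78 kb in WT cells with doxorubicin. In mock cells it had 7.86 and 11.4 kb.

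The share of the 1898 regions past the 1.5-fold size gives the background. For doxorubicin against mock in KO cells, 11.4% were higher and 15.1% lower. For doxorubicin against mock in WT cells, 6.01% were higher and 24.8% lower. For KO against WT with doxorubicin, 7.80% were higher and 17.9% lower. For KO against WT in mock cells, 3.06% were higher and 28.8% lower. Most regions did not pass this size, and in that the 2 loci were like them.

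**Figure D3:**
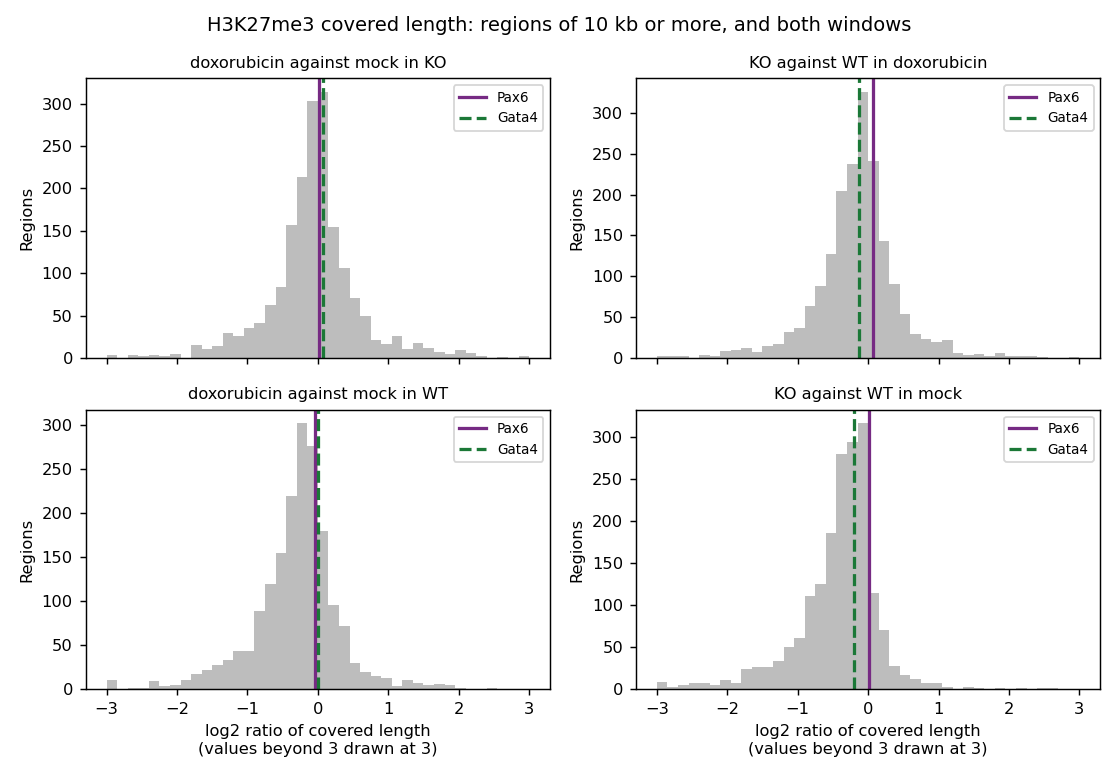
Log2 ratio of H3K27me3 covered length on the x axis and number of regions of 10 kb or more on the y axis, for each of the 4 comparisons, with Pax6 as a solid line and Gata4 as a dashed line. Both lines lie near 0 in each panel, between 0.07 and -0.19. The lines are ratios over the clipped windows, and the bars count whole regions.

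Counted as peaks without a 1-bp overlap, changes of H3K27me3 at Pax6 were few. In KO cells 1 of 2 doxorubicin peaks was gained and 0 of 2 mock peaks were lost, against 35.3% and 34.1% of the lists. In WT cells 0 of 3 were gained with doxorubicin and 0 of 3 lost, against 29.3% and 35.4%. In KO against WT cells with doxorubicin 1 of 2 was gained and 0 of 3 lost, against 32.2% and 35.3%, and in mock cells 0 of 2 and 0 of 3, against 25.5% and 36.3%. The gained peak was the same in both cases, a 931-bp piece at the left edge of the window, inside the joined domain, with a score of 152.

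At Gata4 the same counts were mostly of narrow peaks outside the solid domain. Doxorubicin against mock gained 3 of 8 and lost 3 of 9 peaks in KO cells, and gained 4 of 12 and lost 1 of 5 in WT cells. KO against WT gained 2 of 8 and lost 5 of 12 peaks with doxorubicin, and gained 1 of 9 and lost 0 of 5 in mock cells. Set beside the list shares just given in the same order, these counts lay on either side of them, on 5 to 12 peaks each.

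H3K4me3, in contrast, differed between the conditions at Pax6. Peaks covered 0 kb of the window in KO doxorubicin, 2.53 kb in KO mock, 4.68 kb in WT doxorubicin and 3.21 kb in WT mock cells, from 0, 2, 4 and 2 peaks. The KO doxorubicin list had no H3K4me3 peak between 105240139 and 105743775. Those flanking peaks carried consecutive numbers, 8609 and 8610, and scored 3100 each. No number was missing there, and so no peak of low score appears to have been left out of that list at Pax6. In the other lists, the flanking peaks at the same places scored 2192 and 1523 in KO mock, 3182 and 2757 in WT doxorubicin, and 2386 and 1888 in WT mock cells.

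**Figure D4:**
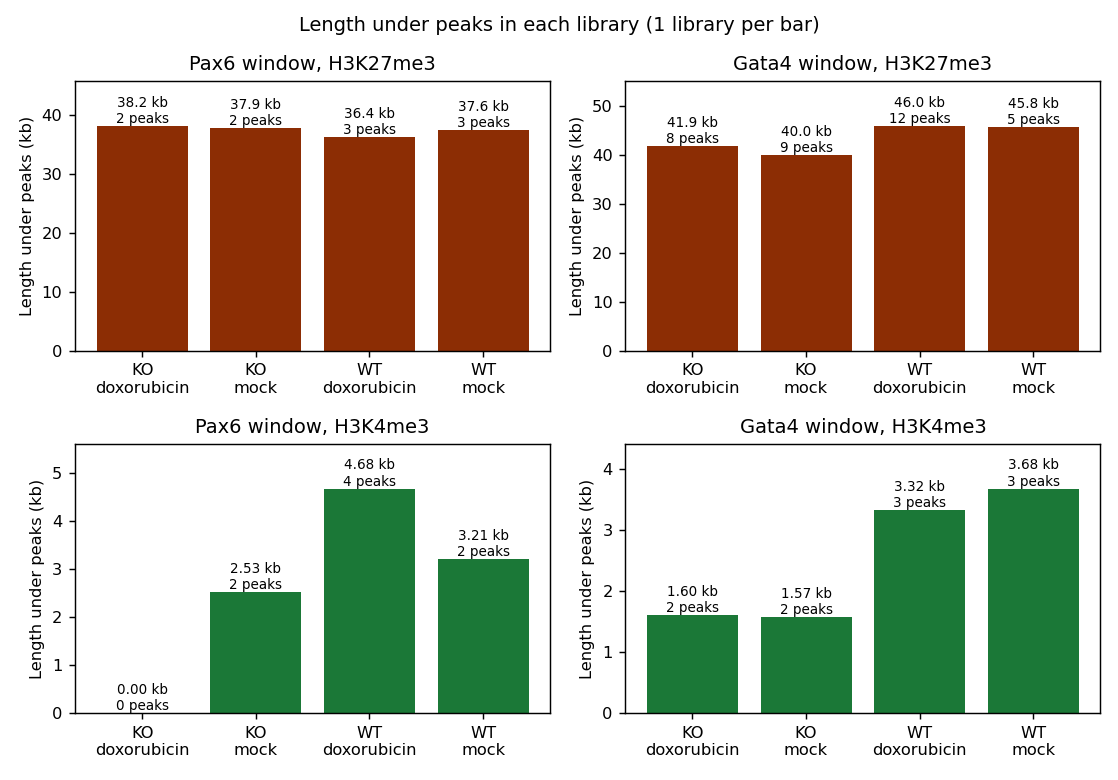
Length of each window under peaks in kb on the y axis, for H3K27me3 (top) and H3K4me3 (bottom), with 1 library per bar and no error bar, since there was 1 library per condition. H3K27me3 bars are of like height, while H3K4me3 at Pax6 runs between 0 kb in KO doxorubicin and 4.68 kb in WT doxorubicin cells.

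Joined over the 4 libraries, the H3K4me3 peaks of Pax6 fell at 3 places, all of them wholly under H3K27me3 in the 4 conditions. The first, 967 bp from 105508809 to 105509775, was listed in WT doxorubicin cells alone, with a score of 170. The second, 2624 bp from 105514521 to 105517144, had no peak in KO doxorubicin and had highest scores of 230 in KO mock, 363 in WT doxorubicin and 210 in WT mock cells. The WT doxorubicin library had a pair of adjoining peaks there. The third, 1499 bp from 105527757 to 105529255, had no peak in KO doxorubicin and scored 259 in KO mock, 99.7 in WT doxorubicin and 176 in WT mock cells. It lay 3.51 to 4.81 kb inside the right edge of the domain. WT doxorubicin was the highest library at the second place and the lowest of the 3 listed at the third.

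Gata4 also had 3 H3K4me3 places, with 1.61 kb covered in KO doxorubicin, 1.57 kb in KO mock, 3.32 kb in WT doxorubicin and 3.68 kb in WT mock cells. The first place, 1526 bp from 63811804 to 63813329, was listed in all 4 conditions, with scores of 219 in KO doxorubicin, 108 in KO mock, 317 in WT doxorubicin and 218 in WT mock cells. None of its bases was under H3K27me3. The nearest H3K27me3 peak was 3.38 kb away in KO doxorubicin, 3.15 kb in KO mock, 0.902 kb in WT doxorubicin and 3.88 kb in WT mock cells.

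The other two Gata4 places were wholly under the solid domain in the 4 conditions. The second, 1277 bp from 63863521 to 63864797, had no peak in KO doxorubicin and scored 139 in KO mock, 461 in WT doxorubicin and 252 in WT mock cells. No peak number was missing around it in the KO doxorubicin list. The third, 1213 bp from 63874217 to 63875429, scored 116 in KO doxorubicin, had no peak in KO mock, and scored 317 in WT doxorubicin and 174 in WT mock cells. The KO doxorubicin peak there was 392 bp wide. In the KO mock list 1 number was missing among the peaks in and around the window, between the second place and the next listed peak, a stretch that includes the third place.

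**Figure D5:**
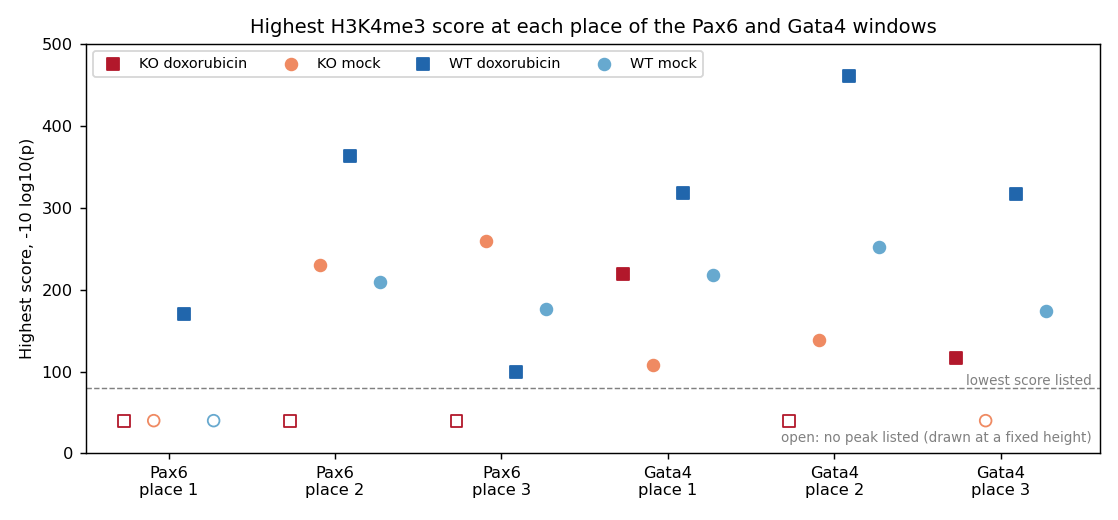
Highest H3K4me3 score (-10 times log10 of p, as deposited) at each of the 6 places on the y axis, by condition, with open symbols at a fixed height where no peak was listed. WT doxorubicin has a peak at each of the 6 places and KO doxorubicin at 2, the first and the third of Gata4. The places were made by joining the peaks of these same libraries.

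Over both loci, the 6 places held a peak in 2 cases in KO doxorubicin, 4 in KO mock, 6 in WT doxorubicin and 5 in WT mock cells. Of the 5 places under H3K27me3 in all conditions, 1, 3, 5 and 4 were listed in this order, and the place outside it was listed in each library. The places were made from peaks of these same lists, so that each library adds to them whatever it lists. The first Pax6 place came from WT doxorubicin alone, the longest H3K4me3 list, with 16477 peaks. The counts are therefore partly set by how the places were made, and no share over all such places was computed. All 18 peaks were weak for H3K4me3, with 3.62 to 24.7% of their lists scoring lower. The list medians were 2141 in KO doxorubicin, 1162 in KO mock, 1526 in WT doxorubicin and 1512 in WT mock cells. A list median does not show how completely weak peaks were listed. Read depth is unknown, and its part in these absences was not tested.

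Doxorubicin against mock compared H3K4me3 at these loci between the treatments, with 1 library on each side. DNA damage itself was not measured in these libraries. In KO cells 2 of 2 mock peaks at Pax6 and 1 of 2 at Gata4 were lost, against 2.69% of the KO mock list. Of the doxorubicin peaks 0 of 0 at Pax6 and 1 of 2 at Gata4 were gained, against 8.84% of that list. The KO mock members under H3K27me3 scored 139 to 259, and all 3 were lost. Of the 349 peaks of that list in this score range and under H3K27me3 of all 4 conditions, 16.0% were lost (exact 95% interval 12.4 to 20.3%, counting error only). In WT cells 0 of 2 peaks at Pax6 and 0 of 3 at Gata4 were lost, against 2.21%, and 1 of 4 and 0 of 3 were gained, against 8.25%. Of the 6 WT doxorubicin members under H3K27me3, 1 was gained, against 39.7% (36.5 to 42.9%) of the 927 peaks of their score range under H3K27me3 of all conditions. Of the 4 WT mock members under H3K27me3, 0 were lost, against 0.772% (0.0937 to 2.76%) of 259 such peaks. Covered length at Pax6 was 1.46-fold higher with doxorubicin in WT cells, under the 1.5-fold size. That direction did not hold with equal numbers of top peaks per list, where doxorubicin minus mock was -0.658 kb. At Gata4 the ratio of doxorubicin to mock was 1.02 in KO and 0.903 in WT cells.

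KO against WT compared H3K4me3 between the genotypes, again with 1 library on each side. With doxorubicin 4 of 4 WT peaks at Pax6 and 1 of 3 at Gata4 were lost, against 11.9% of the WT doxorubicin list, and 0 of 0 and 0 of 2 were gained, against 4.41%. Of the 6 WT doxorubicin members under H3K27me3, 5 were lost. This is close to the 74.8% (71.8 to 77.5%) lost among the 927 peaks of the list in the same score range, 99.7 to 461, and under H3K27me3 of all conditions. Loss in this comparison was thus common among weak H3K4me3 peaks in H3K27me3, at these loci and elsewhere. In mock cells 0 of 2 WT peaks at Pax6 and 1 of 3 at Gata4 were lost, against 9.32%, and 0 of 2 and 0 of 2 were gained, against 1.94%. With an overlap of 50% of the peak required, the lost peaks were 2 of 3 at Gata4 with doxorubicin and 1 of 2 at Pax6 in mock cells. Of the 4 WT mock members under H3K27me3, 1 was lost, against 42.1% (36.0 to 48.4%) of 259 such peaks with scores of 174 to 252. Covered H3K4me3 length at Gata4 was 0.483 of WT in KO cells with doxorubicin and 0.427 of WT in KO mock cells, both past the 1.5-fold size. At Pax6 it was 0.786 of WT in KO mock cells. The share of H3K4me3 lengths past the 1.5-fold size elsewhere was not computed. The median H3K4me3 peak was 1723.5 bp wide in KO mock and 2029 bp in WT mock cells. With doxorubicin it was 1777 bp in KO and 1734 bp in WT cells. Whether the Gata4 ratios differ from those of the lists as a whole was not tested.

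As a whole region, Pax6 had H3K4me3 in the 3 other conditions and none in KO doxorubicin cells. Of the 702 H3K27me3 regions of 10 kb or more with H3K4me3 in those 3 conditions, 73 (10.4%) had none in KO doxorubicin cells.

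The regions most like each window in the H3K27me3 length of the 4 libraries were found by the mean absolute difference in covered length, and are given by position. Lengths clipped to the window were set against lengths of whole regions. The Gata4 window cuts the solid domain and adds the broken stretch and, in WT doxorubicin cells, the narrow peaks left of it. As a whole, the solid Gata4 region was covered over 45.1 kb in KO doxorubicin, 44.0 kb in KO mock, 45.6 kb in WT doxorubicin and 46.3 kb in WT mock cells. The regions listed for Gata4 are therefore matches to the window and not to this domain. For Pax6 they were chr3:128893866-128932233, chr4:151488633-151536938 and chr6:6796759-6843368, with mean differences of 0.911 kb, 1.06 kb and 1.42 kb. Their H3K4me3 peaks numbered 3, 2, 4 and 3 in the first, 2, 2, 5 and 4 in the second and 1, 2, 3 and 2 in the third, for KO doxorubicin, KO mock, WT doxorubicin and WT mock cells. Each of the 3 had at least 1 H3K4me3 peak in KO doxorubicin cells, where Pax6 had 0, and each had most peaks in WT doxorubicin cells, like Pax6. For Gata4 they were chr14:122846236-122899916, chr2:165034851-165093591 and chr2:33446567-33506025, with mean differences of 1.19 kb, 1.33 kb and 1.45 kb. The H3K4me3 peaks numbered 3, 3, 4 and 3 in the first, 1 in each library in the second, and 1, 1, 4 and 1 in the third, in the same order.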

How the data were processed

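ChIP-seq of H3K4me3 and H3K27me3 was made in 4 conditions, with 1 library each. The 4 inputs were not used here. The submitters' processing notes name build mm9, MACS 1.4.2 and Bowtie 0.12.7; how inputs were used is not given in the sources used here. The deposited lists give position, number and a score headed -10 times the log10 of the p-value, per the file headers, a -log10 scale; no deposited score was under 80. Peaks were called per library. Coordinates are mm9, printed from 1 on the assumption that deposited starts count from 0. Depth is unknown.

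Windows came from the rule and peaks were clipped to them for covered length. Covered length, joined extent (gaps under 3 kb), overlap (1 bp) and shares of lists were computed in pandas 2.3.3, numpy 2.4.6 and scipy 1.17.1 under Python 3.11.15, and figures were drawn with matplotlib 3.10.9. The rules were tested on the deposited H3K27me3 peaks of WT mock cells, with some peaks shortened or removed by known amounts. Intervals are exact (Clopper-Pearson) 95%. Those of list shares cover counting error only, and those of covered share, in steps of 200 bp, serve as a yardstick alone. With 1 library per condition no test between conditions was run. The regions named besides the 2 genes are the 3 of 10 kb or more nearest in covered length to each clipped window. Members, windows and comparisons were chosen with earlier results of these data known. Alternatives were a score of at least 100, equal numbers of top peaks per list, joining under 3 kb, and an overlap of 50% of a peak.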

Additional observations from a re-analysis of the deposited data

Results flagged for a closer look

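Between doxorubicin and mock libraries the H3K4me3 length at Pax6 ran in opposite directions in the genotypes, by -2.53 kb in KO and 1.46 kb in WT cells. The difference was -3.99 kb. H3K27me3 at Pax6 also ran in opposite directions, by 0.342 kb in KO and -1.19 kb in WT cells, a difference of 1.53 kb on domains of over 36 kb. H3K4me3 at Gata4 did so by 0.035 kb in KO and -0.357 kb in WT cells, a difference of 0.392 kb. Each was noted because its direction differed between KO and WT, with 1 library behind every value. None of these differences was tested. With equal numbers of top peaks the Pax6 H3K4me3 change in WT cells was -0.658 kb, and with peaks under 3 kb apart joined the Pax6 H3K27me3 change in KO cells was -0.576 kb, so that neither opposition held in that setting.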

How the results depend on the processing

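Covered lengths and their differences were recomputed with 3 other settings. A value was counted as moved when it left the exact 95% binomial interval of the covered share, in steps of 200 bp. Neighbouring steps mostly lie under the same peak and are not independent, so that this interval is a yardstick and measures no error. It was wide for differences. Gata4 H3K27me3, doxorubicin minus mock in WT cells, went from 0.269 to -5.12 points with a score of at least 100 and was counted as having stayed. With a score of at least 100, 31 of 32 values stayed, and Gata4 H3K27me3 in WT doxorubicin cells moved to 55.9% of the window. With an equal number of top peaks, 30 of 32 stayed. Pax6 H3K4me3 in WT doxorubicin cells moved to 4.65% of the window, and KO minus WT with doxorubicin there to -4.65 points. With peaks under 3 kb apart joined, 28 of 32 stayed. Gata4 H3K27me3 moved to 62.9% in KO doxorubicin, 60.5% in KO mock, 69.8% in WT doxorubicin and 67.1% in WT mock cells. None of these 3 settings reversed a difference of 1.5-fold or more. Of the smaller ones for doxorubicin minus mock, the sign turned for Pax6 H3K4me3 in WT cells (-0.658 kb, equal numbers), Pax6 H3K27me3 in KO cells (-0.576 kb, joined) and Gata4 H3K27me3 in WT cells (-3.84 kb, score of at least 100). The cause was not tested. Requiring an overlap of 50% of a peak moved 5 of 32 counts of gained or lost peaks by over 1.5 times, all in KO against WT. Lost H3K4me3 peaks became 1 in place of 0 at Pax6 in mock cells and 2 in place of 1 at Gata4 with doxorubicin. At Gata4 gained H3K27me3 peaks became 4 in place of 2 with doxorubicin and 3 in place of 1 in mock cells, and lost ones 1 in place of 0 in mock cells. Pax6 had no listed H3K4me3 peak in KO doxorubicin cells in any setting. No paired analysis was possible because each mark and condition had 1 library. Depth is unknown, and absence from a list is not absence of the mark.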
